A study of Mus musculus with 4 samples.

Results

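The expression of 8 genes of the contractile apparatus and of the response to transforming growth factor beta (TGF-beta) was measured in single-cell transcriptomes of mouse primary spermatogonial cultures. These were Acta2, Tagln, Cnn1, Myl9, Tpm1, Tpm2, Thbs1 and Lox, taken by symbol from the 32285 genes of the count matrices. Testes of 3 male mice at postnatal day 6 gave the cells. Thy1+ cells, a fraction rich in spermatogonia, were captured on a magnetic column and cultured with STO feeders, which are mouse embryonic fibroblasts of an established line. Vehicle cultures received PBS for 3 days. EV cultures received extracellular vesicles (EVs) for as long, at 1 μg/mL, pooled from the testes of C57BL/6 mice at postnatal day 7. No donor was named for a library, so the libraries may share animals. Counts were used for vehicle 1, vehicle 2 and EV 1. The EV 2 library was not analysed here beyond its 6794 barcodes.

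Cells were sorted into classes by their own RNA. A cell was put in the germ class when Dazl, Tex15, Stk31 and Epcam together gave at least 2 unique molecular identifiers (UMIs, which count captured RNA molecules) and more than Col1a1, Col1a2, Sparc and Dcn. A cell was put in the feeder class in the reverse case. The feeder class held 2357 cells in vehicle 1, 2473 in vehicle 2 and 2508 in EV 1, with 9560631, 10756382 and 6784725 UMIs. The germ class held 4411, 4783 and 227 cells. EV 1 therefore stood apart from the vehicle libraries, with feeder cells at 52.5% of its cells against 28.5% and 28.6%, and with a median of 2447.5 UMIs per feeder cell against 3635 and 3896. With counts from a single EV library, no p-value can be given, and differences between the arms were not checked in a replicate. All intervals are at 95% and cover counting error only.

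Smooth muscle cells and activated fibroblasts contract through actin filaments that are decorated with tropomyosin and calponin and pulled by myosin. Transcription of many of these genes is driven by serum response factor and its actin-sensing partners of the MRTF family, and is raised by TGF-beta in fibroblasts. In the testis, the peritubular myoid cells that wrap the tubules are the best known site of this programme, with Acta2 as their usual marker. TGF-beta also drives secreted proteins such as thrombospondin 1 and lysyl oxidase, which act on the matrix outside the cell.

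The label of the feeder class was checked against other genes. Of 10 fibroblast markers not used to sort the cells, 8 were higher in feeder than in germ cells in every library, and the summed level of the 10 in feeder cells was 3960, 3966 and 4211 CPM (counts scaled to 1e6 UMIs of the class) in vehicle 1, vehicle 2 and EV 1. Vim and S100a4 made up most of this sum. Several others were lower in EV 1, with ratios to the pooled vehicle libraries of 0.384 for Pdgfrb, 0.661 for Col3a1, 0.671 for Pdgfra and 0.720 for Col6a1. The exceptions to the 8 were Fbn1 and Lum. Fbn1 was higher in germ cells in every library, at 11.6, 12.4 and 9.23 CPM against 7.32, 8.09 and 5.16 CPM in feeder cells. Lum had 0, 3 and 2 UMIs in feeder cells and 0 in germ cells. Of the lists for other cell types, the Sertoli gene Sox9 was at 281, 298 and 275 CPM in feeder cells, while Amh had 0, 2 and 0 UMIs, Cldn11 had 2, 3 and 0, Dhh had 0, 1 and 0, and Wt1 and Gata4 were at 5.90 CPM or less. Cd68, a lysosomal gene used as a macrophage marker, was at 6.69, 6.23 and 18.1 CPM, while Ptprc, Csf1r, Adgre1 and C1qa were at 1.47 CPM or less. Of 6 pericyte genes, Notch3 was at 40.4, 42.0 and 33.0 CPM and Cspg4 at 14.4, 14.3 and 11.6 CPM, while Rgs5 had 13, 12 and 5 UMIs, Mcam 16, 13 and 2, Abcc9 6, 8 and 3, and Kcnj8 none. The part of Sox9, Cd68, Notch3 and Cspg4 in the results was not tested. Germ cell RNA in the feeder class was lowest in EV 1. The summed level of 6 germ cell genes not used to sort was 16.3, 13.4 and 3.39 CPM in feeder cells. In germ cells it was 522, 527 and 511 CPM. The sum of 4 Y-linked genes in feeder cells was 4.29, 4.09 and 0.442 CPM. The part of this RNA in the results was not tested. Of 8 genes of peritubular myoid or smooth muscle cells, 2 reached 200 UMIs over the feeder cells of the 3 libraries, Des and Ptch1. The summed level of these 8 in feeder cells was 39.5, 41.7 and 40.2 CPM, beside 45.7, 40.1 and 40.0 CPM in the germ class. Myocd, the master regulator of smooth muscle genes, had 2, 5 and 2 UMIs in feeder cells, Actg2 had 1, 3 and 3, and Kcnmb1 had 0, 1 and 0, while Myh11, the smooth muscle myosin heavy chain gene, had 45, 35 and 21. Des, the muscle intermediate filament gene, had 170, 204 and 86, and Ptch1, the hedgehog receptor gene, had 145, 186 and 147. Feeder cells thus held Des, Ptch1 and some Myh11 RNA and next to none of Myocd, Actg2 and Kcnmb1. Ptch1 was higher in the germ class, at 31.4, 27.8 and 30.8 CPM beside 15.2, 17.3 and 21.7 CPM in feeder cells. Des was lower in the germ class, at 7.09, 6.45 and 6.15 CPM beside 17.8, 19.0 and 12.7 CPM. Myh11 was at 5.08, 4.09 and 0 CPM in the germ class beside 4.71, 3.25 and 3.10 CPM in feeder cells.

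The classic smooth muscle genes were barely detected. Acta2, the smooth muscle actin gene, had 43, 48 and 6 UMIs in the feeder cells of vehicle 1, vehicle 2 and EV 1. Tagln, which encodes the actin-binding protein transgelin, had 8, 14 and 4. Cnn1 (calponin 1) had 3, 3 and 2, and Myl9, a regulatory light chain of myosin, had 1, 9 and 2. These 4 genes thus stayed under the 200 UMIs over the feeder cells of all libraries that were set as the minimum for a call.

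**Figure D1:**
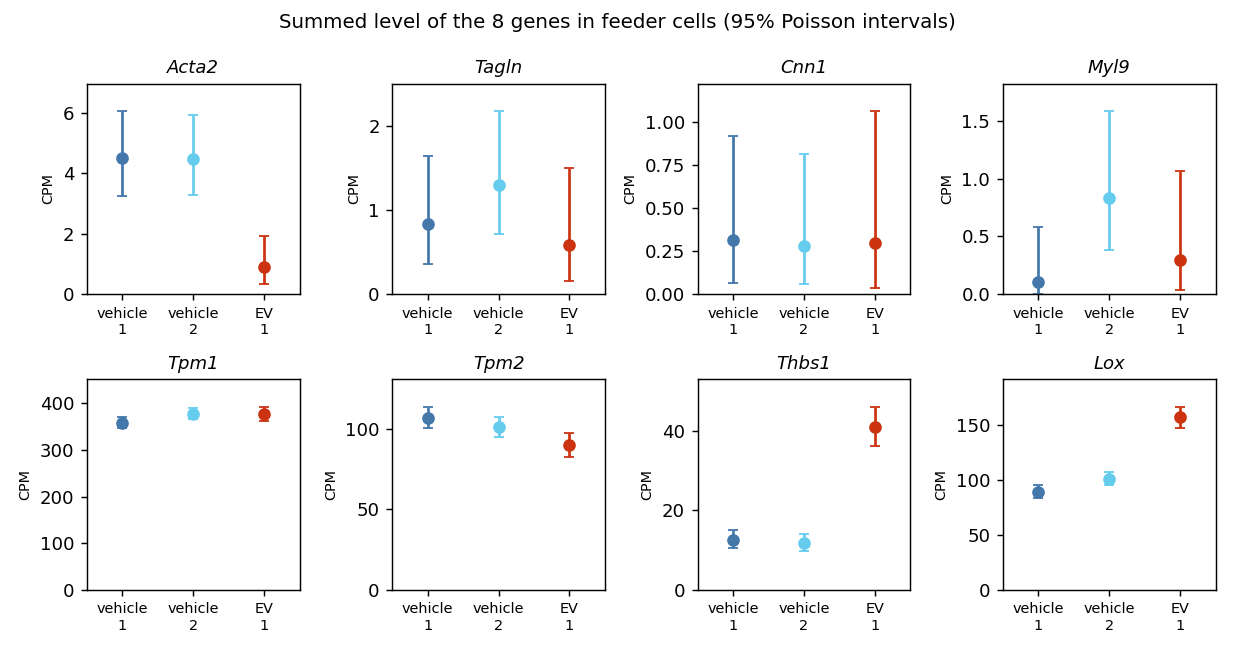
Level of each of the 8 genes in feeder cells of vehicle 1, vehicle 2 and EV 1, in CPM with 95% Poisson intervals; each panel has its own axis from 0. Thbs1 and Lox lie above both vehicle libraries in EV 1, Tpm1 lies at the vehicle level, and the levels of Tagln, Cnn1 and Myl9 rest on at most 14 UMIs per library.

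On GRCm38 these genes lie at chr19:34241090-34255590 (Acta2, ENSMUSG00000035783, minus strand), chr9:45929619-45936058 (Tagln, ENSMUSG00000032085, minus), chr9:22099216-22109630 (Cnn1, ENSMUSG00000001349, plus) and chr2:156775420-156781658 (Myl9, ENSMUSG00000067818, plus), and all 8 genes are protein coding. Of these 4, only Acta2 had intervals of EV 1 and vehicle that did not overlap. Its level was 4.50 CPM (3.25 to 6.06) in vehicle 1, 4.46 CPM (3.29 to 5.92) in vehicle 2 and 0.884 CPM (0.325 to 1.92) in EV 1, a ratio to the pooled vehicle libraries of 0.197 (0.0706 to 0.447). The UMIs were spread thinly, over 40, 46 and 6 feeder cells with no more than 2 in any cell. Of the Acta2-positive feeder cells 1, 0 and 0 also had a UMI of Tagln, Cnn1 or Myl9. They held 0, 3 and 0 UMIs of 4 Y-linked genes, or 0, 10.5 and 0 CPM, beside 176, 182 and 194 CPM in the germ cells of these male mice. Germ cells had 9, 4 and 0 Acta2 UMIs, and the 0 in the 227 germ cells of EV 1 allows a level of up to 9.23 CPM. With cells thinned to 1000 UMIs each, 8 of 2271, 5 of 2417 and 2 of 2324 feeder cells held an Acta2 UMI, and these shares of 0.352% (0.179 to 0.694), 0.207% (0.0884 to 0.483) and 0.0861% (0.0236 to 0.313) overlapped in their intervals. In germ cells of the vehicle libraries, which should lack the gene, the share was 0.0703% and 0.0642%. The share in feeder cells of EV 1 was thus near that of vehicle germ cells, and in vehicle feeder cells it was above that by a few cells.

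Sequences are shown for the genes that hold a match to let-7, since the study concerns let-7b and let-7c as EV cargo. Mature let-7c-5p and let-7b-5p (RefSeq, GRCm38.p6) have the same seed, bases 2 to 8, in capitals:
mmu-let-7c-5p: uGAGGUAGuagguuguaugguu
mmu-let-7b-5p: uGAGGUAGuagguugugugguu
The match to this seed, CTACCTC on the transcript strand, was searched in the longest annotated 3′ UTR of each gene (GENCODE vM21, GRCm38, stop codon included). It was present in 3 of the 8 genes, and in 1898 of 21707 genes with a 3′ UTR (8.74%), whose lengths differ. The match is in capitals in the 24 bases around each site, which lie in the 3′ UTR at chr9:22109555-22109578 (+), chr2:156781191-156781214 (+) and chr4:43514881-43514904 (-):
Cnn1: ctaacgaagatctgcCTACCTCtg
Myl9: ccccatcccagtcacCTACCTCcc
Tpm2: cctgtttaccctcccCTACCTCac
Acta2, Tagln, Tpm1, Thbs1 and Lox held no match in theirs. Of the 3 genes with a match, Cnn1 and Myl9 had too few UMIs for a comparison, and Tpm2 is described below.

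The binding motif of serum response factor, the CArG box of 10 bases, was searched on both strands of the RefSeq promoter windows, which run from 250 bases before to 50 bases after the start. A window was given for 5 of the 8 genes (Acta2, Cnn1, Myl9, Tpm1 and Tpm2), and that of Myl9 held a box, as did 535 of 32851 windows in all (1.63%). The stretch around it lies upstream of Myl9 at chr2:156775278-156775337 (+, GRCm38.p6), from base -186 to base -127 before the start, with the box in capitals:
Myl9: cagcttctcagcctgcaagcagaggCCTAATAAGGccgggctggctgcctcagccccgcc
With 12 Myl9 UMIs over all feeder cells, no difference between the libraries was detectable at this depth.

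Of the contractile genes among the 8, the tropomyosins were the ones with enough UMIs to be read. Tropomyosins lie along actin filaments and set which myosins and binding proteins reach them. Tpm1 (ENSMUSG00000032366, GRCm38 chr9:67022590-67049406, minus strand) was measured at 359 CPM in vehicle 1, 378 CPM in vehicle 2 and 378 CPM in EV 1, from 3430, 4065 and 2564 UMIs. EV 1 lay at the upper end of the vehicle range, and its ratio to the pooled vehicle libraries of 1.02 had an interval of 0.979 to 1.07. At 1000 UMIs per cell, 28.8%, 29.5% and 29.0% of the feeder cells had a Tpm1 UMI. Without thinning the shares were 64.3%, 66.7% and 54.0%, lowest in EV 1, whose feeder cells were shallower. Neither its level nor the thinned share of cells thus separated EV 1 from the vehicle libraries.

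Tpm2 (ENSMUSG00000028464, chr4:43514711-43523765, minus strand) gave 107, 101 and 89.8 CPM, from 1022, 1087 and 609 UMIs. EV 1 was below both vehicle libraries, with a ratio of 0.865 (0.789 to 0.947) and a log2 ratio of -0.21, which was short of the 2-fold needed for a call. The thinned share of feeder cells with a Tpm2 UMI was 9.03%, 7.82% and 8.35%, so that EV 1 fell between the vehicle libraries on that measure, and the log2 ratio of thinned counts was 0.023. Other measures kept EV 1 below the vehicle mean, with log2 ratios of -0.30, -0.070 and -0.17 in cells under 2000, of 2000 to 4000 and over 4000 UMIs, and of -0.27 for the mean over cells of counts per 10000. In cells of 2000 to 4000 UMIs, EV 1 at 91.5 CPM lay between vehicle 1 at 101 CPM and vehicle 2 at 91.2 CPM. With libraries scaled by TMM or DESeq2 factors, the log2 ratio was -0.085 or -0.083. Without such scaling the median over all genes that could be read was -0.13. The lower level of Tpm2 in EV 1 was thus small and depended on the measure.

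Thbs1 was the gene with the clearest difference. It encodes thrombospondin 1, a secreted glycoprotein that binds CD47 and integrins and can release TGF-beta from its latent complex. Thbs1 (ENSMUSG00000040152, GRCm38 chr2:118111876-118127133, plus strand) was measured at 12.7 CPM (10.5 to 15.1) in vehicle 1, 11.8 CPM (9.84 to 14.0) in vehicle 2 and 41.0 CPM (36.3 to 46.1) in EV 1, from 121, 127 and 278 UMIs. The vehicle libraries were within their counting error of each other, and EV 1 did not overlap them. Against the vehicle mean of 12.2 ± 0.600 CPM (SD, n = 2), the level in EV 1 was 3.34-fold higher (log2 ratio 1.74), and its ratio to the pooled vehicle libraries was 3.36 (2.82 to 4.00). The share of feeder cells with a Thbs1 UMI at 1000 UMIs per cell was 1.19% (0.818 to 1.72), 1.32% (0.939 to 1.86) and 3.87% (3.16 to 4.74), and without thinning it was 4.50%, 4.57% and 8.81%. More cells of EV 1 thus held a Thbs1 UMI although they were shallower.

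Lox encodes lysyl oxidase, the copper enzyme that starts the cross-linking of collagen and elastin. Lox (ENSMUSG00000024529, GRCm38 chr18:52516067-52529867, minus strand) was measured at 89.6 CPM (83.7 to 95.8) in vehicle 1, 101 CPM (95.2 to 107) in vehicle 2 and 157 CPM (148 to 167) in EV 1, from 857, 1088 and 1067 UMIs. EV 1 was above both vehicle libraries with no overlap of the intervals. The level was 1.65-fold that of the vehicle mean of 95.4 ± 8.14 CPM (SD, n = 2), a log2 ratio of 0.72, and the ratio to the pooled vehicle libraries was 1.64 (1.52 to 1.77). This did not reach the 2-fold set for a call. The thinned share of feeder cells with a Lox UMI was 8.10% (7.05 to 9.30), 9.14% (8.06 to 10.4) and 13.9% (12.6 to 15.4), with the same order of libraries as the level.

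**Figure D2:**
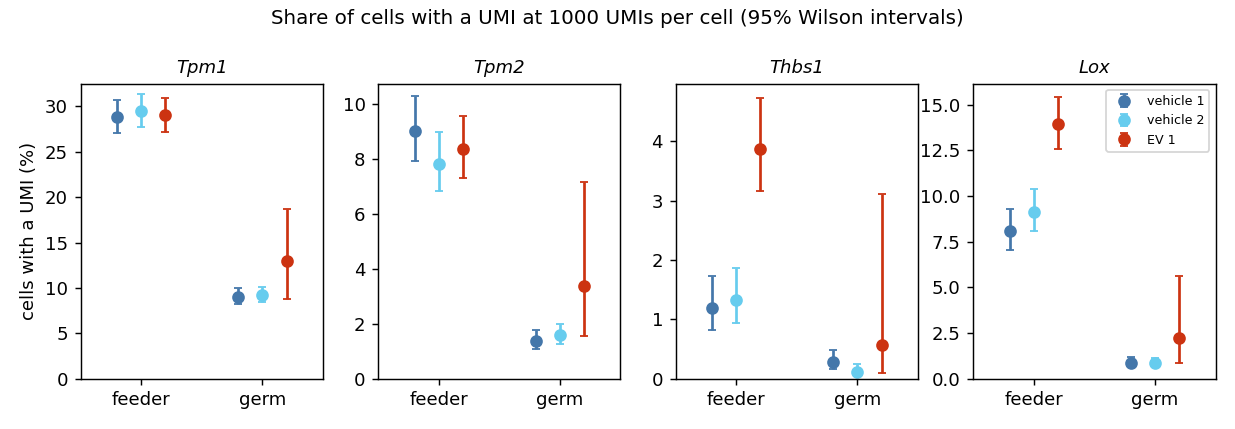
Share of feeder and germ cells with a UMI of Tpm1, Tpm2, Thbs1 and Lox after each cell was thinned to 1000 UMIs, in percent with 95% Wilson intervals, for vehicle 1, vehicle 2 and EV 1. In feeder cells, EV 1 stands above the vehicle libraries for Thbs1 (3.87%) and Lox (13.9%) and among them for Tpm1 and Tpm2; the germ cells of EV 1 are few and their intervals wide.

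A gene was called when it had at least 200 UMIs over the feeder cells of the 3 libraries, differed at least 2-fold between EV 1 and the vehicle mean, and was farther from the nearer vehicle library than the vehicle libraries were from each other. By this rule 4 of the 8 genes could be read and 1, Thbs1, was called, as higher. Over all 9705 genes that could be read, 1.41% were called higher, 2.81% lower and 4.22% in either direction. With a minimum of 50 UMIs, Acta2 also entered and was called lower, 2 of 5 genes, against 2.42% called higher, 4.7% lower and 7.11% in either direction of 12877. The median log2 ratio over the 8 genes was -0.087, beside -0.13 over all genes that could be read, and it turned to 0.040 with TMM and 0.042 with DESeq2 scaling, which move all genes up by 0.13. The genes did not move as a group. Thbs1 was past 2-fold, Lox at 1.65-fold and both tropomyosins were short of it, and Acta2 lay on the other side at too few UMIs for the rule.

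In each subset of the feeder cells examined, Thbs1 was highest in EV 1, although the UMIs were few in some. Feeder cells of EV 1 differed from those of the vehicle libraries in several other respects, and cells were split by some of them. Mt1, a metallothionein gene that responds to metals and stress, was at 2642, 2534 and 9027 CPM, and 81.9% of the feeder cells of EV 1 lay above the vehicle median of Mt1 and Mt2 against 50.9% and 49.2%. Hilpda, a lipid droplet gene induced by hypoxia, had a UMI in 42.9%, 43.5% and 61.7% of the cells. A UMI of Mki67 or Top2a, genes of dividing cells, was found in 12.4%, 10.96% and 2.23%. Cells were not split by the following genes, whose part in the results was not tested. Hmox1, the stress gene of heme oxygenase, was at 111, 125 and 325 CPM. Among the immediate early genes, several of them direct targets of serum response factor, Fos was at 159, 148 and 16.5 CPM, Fosb at 110, 96.5 and 18.6 CPM and Egr1 at 91.8, 97.3 and 43.0 CPM. Of the 7 genes of that list these 3 were called, all lower, beside 2.81% of all genes.

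Among feeder cells at or below the vehicle median of Mt1 and Mt2, Thbs1 was at 12.1, 10.7 and 47.8 CPM (56, 58 and 51 UMIs), and among those above it at 13.2, 12.9 and 39.7 CPM. Without a Hilpda UMI it was at 12.5, 12.7 and 42.7 CPM, and with one at 12.9, 10.9 and 40.2 CPM. EV 1 was thus above both vehicle libraries in each of these subsets. In cells under 2000 UMIs the levels were 12.1, 12.0 and 49.7 CPM, from only 7, 6 and 61 UMIs, in those of 2000 to 4000 UMIs 11.6, 8.29 and 42.6 CPM, and in those over 4000 UMIs 13.2, 13.1 and 33.2 CPM. EV 1 was highest at every depth. In cells with a UMI of Mki67 or Top2a the level was read from 18, 17 and 4 UMIs, and EV 1 overlapped the vehicle libraries in its interval, while the cells without gave 12.8, 12.0 and 41.5 CPM.

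Lox varied with the same features within each library. It was lower in feeder cells at or below the vehicle median of Mt1 and Mt2 (67.7, 77.1 and 139 CPM) than in those above it (110, 125 and 161 CPM) in all 3 libraries. Cells with a Hilpda UMI had 108, 119 and 168 CPM, and cells without had 71.2, 83.5 and 132 CPM. Within each stratum EV 1 was above both vehicle libraries, by a log2 ratio of 0.94 among cells low in the metallothioneins and of 0.45 among those high in them. The share of Mt1-high and Hilpda-positive cells was also larger in EV 1, and their part in the Lox difference over all feeder cells was not tested.

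**Figure D3:**
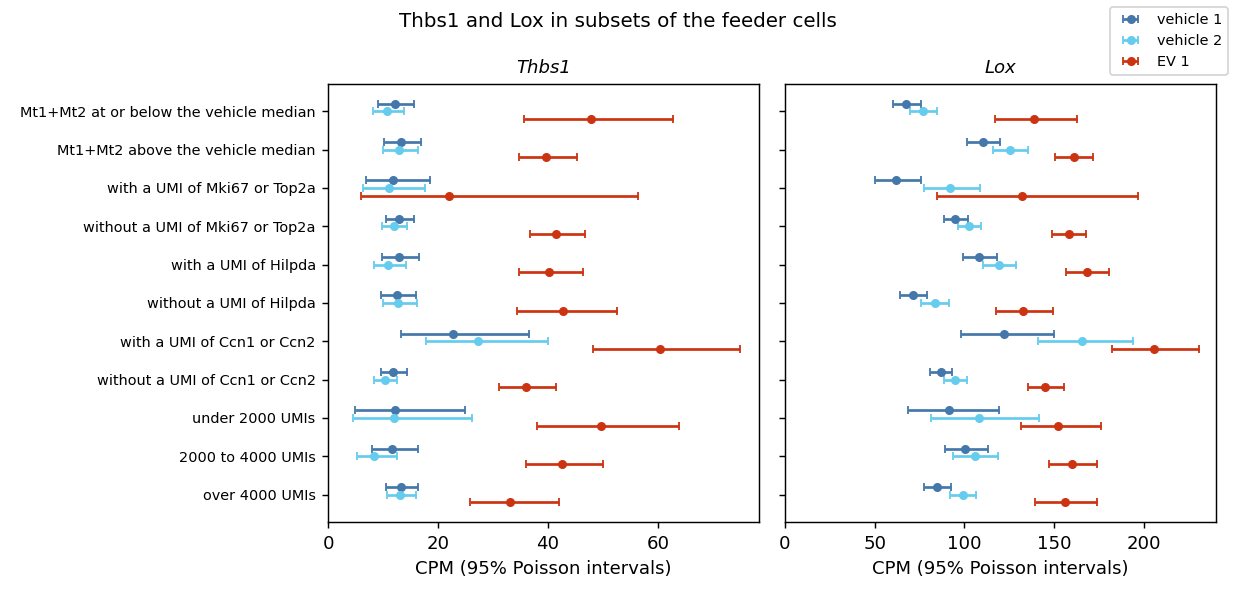
Level of Thbs1 and Lox in subsets of the feeder cells of vehicle 1, vehicle 2 and EV 1, in CPM with 95% Poisson intervals, with cells split by metallothionein level, cycling genes, Hilpda, Ccn1 or Ccn2, and UMIs per cell. EV 1 has the highest value in every subset for both genes; the cycling subset of EV 1 holds 4 Thbs1 UMIs.

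Thbs1 and Lox were also read in the cells that the marker rule left without a class, 1495, 1381 and 2044 cells in vehicle 1, vehicle 2 and EV 1. Thbs1 was at 8.31, 9.85 and 29.2 CPM there, a ratio of 3.22 (2.20 to 4.80), and Lox at 26.7, 32.2 and 94.95 CPM, a ratio of 3.23 (2.61 to 4.00). Acta2 was at 2.62, 4.92 and 2.75 CPM there, from 6, 11 and 8 UMIs, a ratio of 0.732 (0.273 to 1.79), so that EV 1 lay within the vehicle range, unlike in feeder cells. Tagln was at 2.62, 5.37 and 0 CPM there, from 6, 12 and 0 UMIs, a ratio of 0 (0 to 0.354). Myl9 had 2, 4 and 0 UMIs and Cnn1 had 4, 5 and 2. The makeup of these cells differs between the libraries in an unknown way, so the larger ratio of Lox there cannot be told apart from a larger share of feeder cells among them.

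In germ cells, Tpm1, Tpm2, Thbs1 and Lox were at a fraction of their feeder level, and Acta2, Tagln, Cnn1 and Myl9 had few counts. Cnn1 and Myl9 were higher in germ than in feeder cells of both vehicle libraries. Cnn1 was at 1.38 and 1.09 CPM (13 and 12 UMIs) against 0.314 and 0.279 CPM (3 and 3 UMIs). Myl9 was at 0.953 and 1.54 CPM (9 and 17 UMIs) against 0.105 and 0.837 CPM (1 and 9 UMIs). Lox was at 7.62, 7.35 and 24.6 CPM (72, 81 and 8 UMIs), which is 8.50%, 7.27% and 15.7% of its level in feeder cells. The feeder genes Vim, an intermediate filament gene (8.47%, 6.09% and 12.4%), and S100a4, a calcium-binding protein gene (10.9%, 8.40% and 15.9%) gave shares of like size, while those of Pdgfra (4.10%, 4.74% and 5.42%) were lower than that of Lox in every library and those of Col3a1 (5.74%, 4.40% and 17.6%) in the vehicle libraries. Thbs1 had 20, 13 and 1 UMIs in germ cells, so that no difference between the arms was detectable there. Tpm1 was at 99.4, 97.8 and 132 CPM or 27.7%, 25.9% and 35.0% of the feeder level, above Vim and S100a4 in each library. Tpm2 was at 15.4, 15.4 and 40.0 CPM, from 145, 170 and 13 UMIs, or 14.4%, 15.3% and 44.6% of its feeder level.

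Among single feeder cells the genes showed little common variation. Tpm1 had a variance of 1.13, 1.14 and 1.16 times its mean at 1000 UMIs per cell, near the value of 1 that random sampling of equal cells gives, and the 10% of cells with the most Tpm1 held 47.9%, 46.4% and 48.3% of its UMIs. Pearson correlations between Tpm1, Tpm2, Thbs1 and Lox over the 2271, 2417 and 2324 cells of each library ran from -0.025 to 0.061, with the highest in the pair of Thbs1 and Lox in EV 1. The genes most like the sum of the 8 over cells were Actb, S100a11, S100a6, Pfn1 and Tmsb4x, of actin and calcium-binding proteins, with a lowest correlation over the libraries of 0.071, 0.063, 0.061, 0.055 and 0.054. In counts this sparse such values are no more than a description.

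Of the other contractile genes with enough UMIs to be read, none reached 2-fold in either direction. Over all genes that could be read, 4.22% were called and the median log2 ratio was -0.13. At that share, lists as short as those below would hold few calls or none. Of 20 smooth muscle contractile genes, 11 had at least 200 UMIs and none was called higher or lower, with log2 ratios from -0.53 to 0.70, a median of 0.17 and 8 of the 11 above 0. Tpm4, the tropomyosin of stress fibres in non-muscle cells, was at 184, 193 and 306 CPM (log2 ratio 0.70), and Smtn, the stress fibre gene smoothelin, at 29.3, 27.3 and 42.7 CPM (0.59). EV 1 was above both vehicle libraries for both genes. Of 20 genes of the actin cytoskeleton and focal adhesions all could be read and none was called, with a median of 0.16. Zyx, the focal adhesion protein zyxin, had a log2 ratio of 0.62 and Flna, which crosslinks actin, a log2 ratio of 0.50. Of 15 SRF, MRTF and YAP regulators 14 could be read and none was called (median -0.062), with Tead4 at 0.89 and Tead3 at -0.78, both DNA-binding partners of YAP. Tead4 was past 2-fold and called with TMM and with DESeq2 scaling, at 1.02 each.

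TGF-beta target genes moved in both directions. Of 20 such genes, 19 could be read, and 5 were called higher and 4 lower, beside 1.41% and 2.81% of all genes. Their median log2 ratio was 0.0036, beside -0.13 over all genes that could be read. Ccn2, the connective tissue growth factor gene, was at 7.84, 12.0 and 48.5 CPM (log2 ratio 2.28). Ccn1, a related gene that YAP also targets, was at 11.7, 11.4 and 43.2 CPM (1.90). EV 1 was above both vehicle libraries for Ccn1 and Ccn2. Bhlhe40, a transcription factor gene also raised by hypoxia, had a log2 ratio of 1.05, and Smad7, the inhibitory SMAD that TGF-beta induces as feedback, was at 24.7, 24.9 and 57.3 CPM (1.21).

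The targets called lower were of matrix and transcription. Tgfbi, a matrix protein named for its induction by TGF-beta, was at 43.5, 41.6 and 16.4 CPM (log2 ratio -1.38). Timp3, an inhibitor of metalloproteinases, was at 131, 128 and 51.9 CPM (-1.32). Ltbp2 (-1.23), a latent TGF-beta binding protein, and Snai2 (-1.01), a repressor of epithelial genes, had 37 and 53 UMIs in EV 1. Snai2 was short of 2-fold and not called with TMM and with DESeq2 scaling, at -0.88 each. EV 1 was below both vehicle libraries for all 4.

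Most genes of the ligand side had log2 ratios under 0. Of 15 genes of TGF-beta ligands and their handling, 11 could be read, 1 was called lower (Ltbp2, counted above) and 1 of the 11 had a log2 ratio above 0, with a median of -0.48. Of 16 receptors and SMADs 13 could be read and 1 was called, Smad7, with a median of -0.13, that of all genes. Of 11 thrombospondins and their receptors, 7 could be read with none called. Cd47, a receptor of thrombospondin 1, was at 192, 194 and 273 CPM (log2 ratio 0.50), and Thbs2 at 23.7, 25.4 and 16.8 CPM (-0.54), so that the related thrombospondin gene did not share the direction of Thbs1. Of 18 lysyl oxidases and genes of the elastic fibre and collagen cross-linking, 9 could be read and 1 was called higher, Plod2, which hydroxylates collagen lysines for cross-linking and is a hypoxia target, at 214, 235 and 454 CPM (1.01). The median of these 9 was -0.57, on the other side of 0 from Lox. Over all lists, 6 of 100 genes were called higher and 4 lower, 10% beside 4.22% of all genes. The TGF-beta target list held 5 of the 6 called higher and all 4 called lower, and Plod2 was the other gene. The lists were chosen with earlier results of these data known, so this share is a description only.

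**Figure D4:**
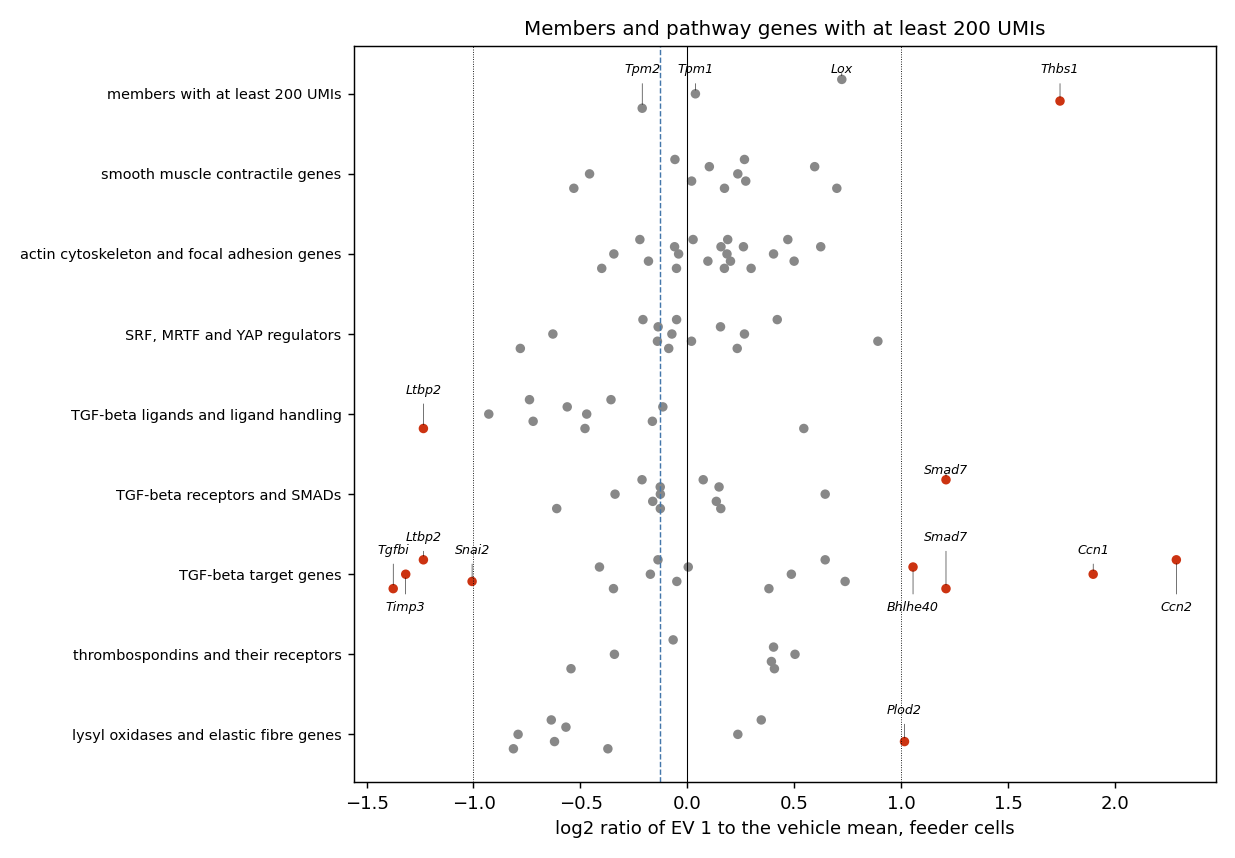
Log2 ratio (EV 1 against the mean of the vehicle libraries) in feeder cells for those of the 8 genes and of the 8 pathway lists that had at least 200 UMIs, 1 point per gene shown; red points are called, dotted lines mark 2-fold and the dashed line the median of all genes (-0.13). Called genes lie among the TGF-beta targets in both directions, while no contractile or actin gene shown is past 2-fold; Acta2 (log2 ratio -2.24, 97 UMIs) is under the minimum and not shown.

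Ccn1 and Ccn2 were used to look at cells with target gene RNA. A UMI of either was found in 6.28%, 7.60% and 17.5% of the feeder cells of vehicle 1, vehicle 2 and EV 1. In those cells Thbs1 was at 22.8, 27.3 and 60.4 CPM (17, 26 and 83 UMIs), and in the rest at 11.8, 10.3 and 36.0 CPM. Lox was at 122, 166 and 205 CPM in the first and at 86.9, 94.9 and 145 CPM in the second. Both genes were thus higher beside Ccn1 or Ccn2 RNA in every library, and in EV 1 above the vehicle libraries in both sets of cells. A UMI of Ccn1 or Ccn2 is more easily found in deeper cells, and the part of depth in this was not tested.

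Tagln lies opposite Pcsk7 and Gm48529, Thbs1 opposite Gm29233 and Lox opposite AC161119.1, and a strand setting of the count was not given in the sources used here, so that reads of these genes may not have been told apart.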

How the data were processed

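Droplet (10x Genomics) libraries were made by the authors, 2 per arm. Per the submitters' processing notes and the study's methods, Cell Ranger 7.0.1 was run against mm10; intron and strand settings were not given in the sources used here. The deposited values are raw UMI counts per gene and barcode, from which the following were computed. Cells were kept where the gene number was between 400 and 4000 and mitochondrial UMIs stayed below 10%, and the highest Scrublet scores (scanpy 1.11.5) were removed as doublets at 0.8% per 1000 cells (633, 697 and 198 cells), which left 8263, 8637 and 4779 cells from 9291, 9738 and 5249 barcodes with 23686047, 27444797 and 10793232 UMIs. No 2 libraries had more than 22 barcodes in common. UMIs were summed per library and class and scaled to 1e6 (CPM) with exact Poisson intervals. Log2 ratios of EV 1 to the vehicle mean had 0.5 UMI added to each sum, and ratios to the pooled vehicle libraries had exact conditional intervals. A level at 0 was bounded at 3 counts. Shares had Wilson intervals.

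The members and gene lists were chosen with earlier results of these data known. The text names the 8 members, the genes called in a pathway list or, in a list without a call, up to 2 with the largest log2 ratio in size, and the 5 genes most correlated with the members over cells. Of the called pathway genes, 1 is counted but not reported here. Marker genes are named for the check of classes, and Pdgfrb, Cd68, Hmox1 and the immediate early genes after their values were seen. The strata other than those listed as alternatives, and the split by Ccn1 and Ccn2, were chosen after seeing the data. No count model was fitted: edgeR 4.0.16 and DESeq2 1.42.0 served for scaling factors only. Other tools were Python 3.11.15, numpy 2.4.6, scipy 1.17.1, pandas 2.3.3 and matplotlib 3.10.9.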

Additional observations from a re-analysis of the deposited data

Results flagged for a closer look

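Tpm2 lay on opposite sides of the vehicle libraries in the 2 classes. The ratio of EV 1 to the pooled vehicle libraries was 0.865 (0.789 to 0.947) in feeder cells and 2.60 (1.37 to 4.51) in germ cells. EV 1 was below both vehicle libraries in the feeder class and above both in the germ class, where its level rests on 13 UMIs. Of other genes of the feeder cells, the same ratio in germ cells was 2.16 (1.75 to 2.64) for Vim, 2.01 (1.09 to 3.41) for Sox9, 1.56 (1.21 to 1.98) for S100a4, 3.29 (1.40 to 6.65) for Lox, 1.49 (1.05 to 2.05) for Dcn, 1.99 (0.638 to 4.75) for Col1a1, 1.28 (0.262 to 3.83) for Col1a2, 2.33 (0.925 to 4.90) for Col3a1 and 1.71 (0.461 to 4.48) for Thy1, while it was 0.817 (0.0981 to 3.00) for Pdgfra, 0.917 (0.188 to 2.72) for Col6a1, 0.765 (0.348 to 1.46) for Col5a1 and 1.14 (0.488 to 2.26) for Sparc. The part of feeder RNA in the ratio of Tpm2 was not tested. The difference between the classes was not tested. In feeder cells the log2 ratio of Tpm2 was -0.21, and it was -0.085 with TMM scaling.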

How the results depend on the processing

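The median log2 ratio of the 8 genes in feeder cells and the number of them called were recomputed under 18 alternatives. So were the feeder-cell log2 ratios of the 8 genes and of the pathway genes named. Thbs1 was called in 18 of 18, with log2 ratios from 1.67 to 2.07, and Lox in none, from 0.64 to 0.94. Acta2 kept its sign in 18 (-3.03 to -1.04), Tpm2 in 17 and Tpm1 in 16. The number of the 8 genes called, 1, became 2 without a minimum of UMIs and 2 with a minimum of 50, where Acta2 joined. The median log2 ratio of the 8 genes, -0.087, changed side with small changes: it was 0.040 with TMM factors, 0.042 with DESeq2 size factors, 0.022 with cells thinned to 1000 UMIs, 0.037 over the 5 genes with at least 50 UMIs, 0.14 in cells at or below the vehicle median of Mt1 and Mt2 and 0.42 in cells of 1500 to 4000 UMIs. It was -0.13 with at least 4 marker UMIs for a class, -0.14 in all cells without a germ marker UMI and -0.13 with all deposited barcodes. Over the 4 genes with at least 200 UMIs, an alternative chosen after seeing the data, it was 0.38. Leaving out a vehicle library gave -0.085 to 0.042. TMM and DESeq2 factors moved the median of all genes alongside, from -0.13 to -0.0023 and -0.00015; the cause of the other changes was not tested. Of the called pathway genes, Snai2 was called in 9 of 18, Plod2 in 14 and Bhlhe40 in 16. Not called at first, Tead4 was called in 4 of 18 (up to 1.46) and Smtn in 1 (1.14, and 0.15 with thinned cells). No paired analysis was possible because the groups with counts share only replicate number 1 and no test was made. Depth limits Acta2, Tagln, Cnn1 and Myl9, and every gene in the 227 germ cells of EV 1.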
